A study of Mus musculus with 12 samples.

Results

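The vascular endothelial growth factor (VEGF) ligands and receptors described here were the 8 genes Vegfa, Vegfb, Vegfc, Pgf, Flt1, Kdr, Flt4 and Nrp2, taken by symbol from the deposited count table of mouse retina. All 8 were found among the 35976 genes of the table, and all 8 were among the 24484 genes with at least 1 read. Retinal mRNA was sequenced from the 3' end (QuantSeq) in 12 libraries, 3 in each of 4 groups. The groups were labelled WT (C57BL/6) normoxia, WT oxygen-induced retinopathy (OIR), Caspase1 knockout (Casp1 KO) normoxia and Casp1 KO OIR. In OIR, pups are kept in high oxygen, which stops the growth of retinal vessels, and the return to room air leaves the poorly perfused retina hypoxic. The WT pups were in 75% oxygen from postnatal day 7 to 12, and all WT retinas were taken at postnatal day 15. The labels place collection 3 days into the hypoxic phase. For the animals labelled Casp1 KO, the age, the oxygen level, the way the Casp1 allele was made and whether the controls were littermates were not stated in the sources used here.

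VEGF-A is released by hypoxic glia and neurons and drives the growth of retinal vessels through VEGF receptor 2, which Kdr encodes. VEGF receptor 1 (Flt1) binds VEGF-A, VEGF-B and placental growth factor (Pgf) tightly, signals weakly, and in its soluble form acts as a trap for VEGF-A. VEGF-C acts mainly on VEGF receptor 3 (Flt4), best known from lymphatic vessels and sprouting endothelium, and neuropilin 2 (Nrp2) is a co-receptor that binds VEGF-C and VEGF-A.

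Libraries held 3391203 to 5657873 reads apart from WT normoxia replicate 2, which held 22815830. A count of 0 allows up to 3 reads, which in CPM (reads of a gene scaled to a common library size) was 0.134 in that library and at most 0.871 in the others. No molecular identifiers were described, so such limits cover counting error only. Reads of Casp1 went against the genotype labels. The 6 libraries labelled WT held 7 Casp1 reads in all and the 6 labelled Casp1 KO held 126, so the genotypes are named here as labels only. WT OIR replicate 3 stood apart from its group, as the chi-square of its counts, divided by the degrees of freedom, was 14.03 and 13.2 against the other WT OIR libraries and 3.48 to 9.34 for all other pairs within a group. Reads were sought for marker genes of 12 cell types, with lens, pigment epithelium and red blood cells among them. Only the lymphatic marker Ccl21a and the smooth muscle marker Tagln had no reads. A single read in any library sufficed, so this does not test retinal identity. In whole retina, fewer cells of a type and less RNA per cell cannot be told apart. Nothing in the labels says that the libraries of a group came from separate animals, so p-values measure the spread between these libraries, which may be technical.

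Vegfa rose with OIR under both genotype labels, by 1.79-fold and 1.94-fold. Vegfb fell when both genotypes were fitted together, and Flt1 rose in the libraries labelled Casp1 KO. Kdr, Flt4, Nrp2, Vegfc and Pgf did not pass the test in any comparison. The fold changes below come from edgeR's quasi-likelihood test, with p-values adjusted by Benjamini-Hochberg over all genes tested and a threshold of 0.05. Levels are CPM on the TMM scale (libraries scaled by trimmed means), which allow one gene to be compared between libraries but not different genes with each other.

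**Figure D1:**
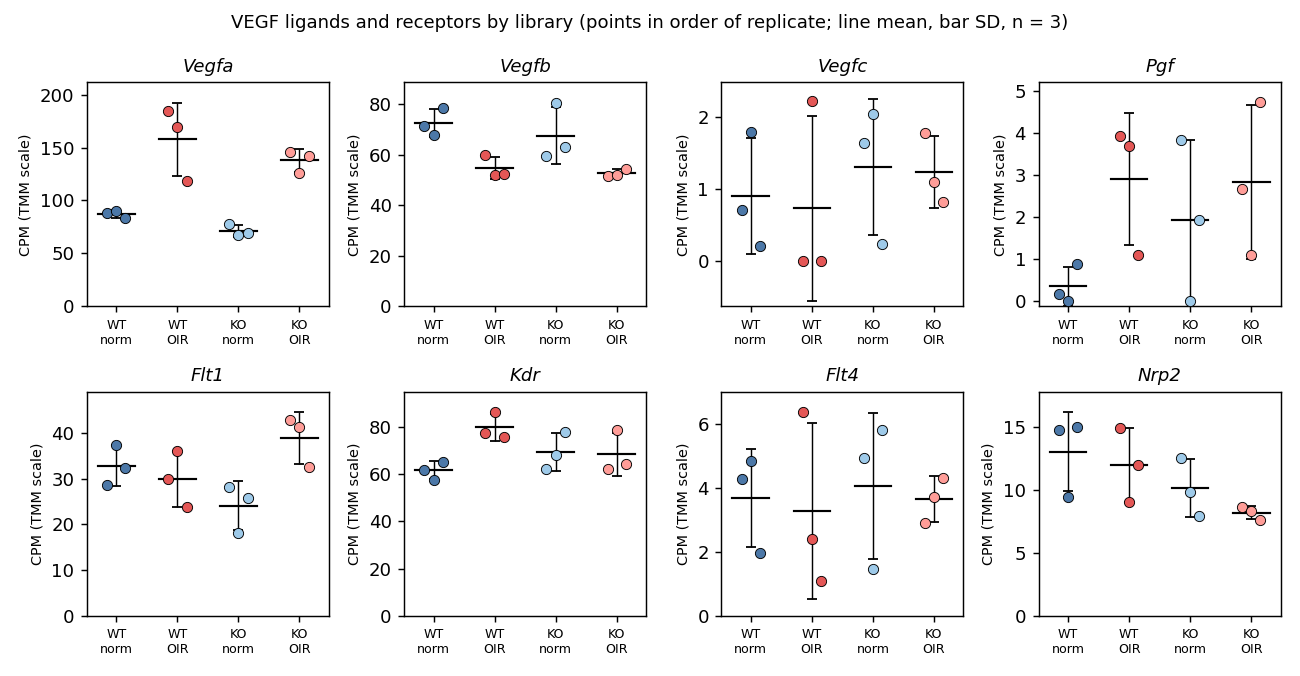
Level of each of the 8 genes in CPM (TMM scale) in the 12 libraries, with 3 points a group in the order of the replicate numbers, the group mean as a line and the SD as a bar. For Vegfa the 3 OIR points lie above the 3 normoxia points under both labels, from 118 to 185 against 83.1 to 90.2 CPM in WT.

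Vegfa (chr17:46016993-46032369, minus strand, GRCm38, protein coding, 13 annotated transcripts) encodes the hypoxia-induced ligand. Its level was 88.1, 90.2 and 83.1 CPM in WT normoxia replicates 1 to 3 and 185, 170 and 118 CPM in WT OIR. In the libraries labelled Casp1 KO it was 78.03, 67.7 and 68.8 CPM in normoxia and 146, 126 and 142 CPM in OIR. Every OIR library was above every normoxia library of either label, and the lowest of the WT OIR values was that of replicate 3. Group means were 87.1 ± 3.65 (SD, n = 3) and 158 ± 34.7 CPM in WT, and 71.5 ± 5.67 and 138 ± 10.6 CPM in Casp1 KO. The rise was 1.79-fold in WT (log2 fold change 0.84, SE 0.145, 95% interval 0.56 to 1.13, adjusted p = 1.51e-06, edgeR) and 1.94-fold in Casp1 KO (0.96, SE 0.119, 0.72 to 1.19, adjusted p = 4.71e-13, edgeR). Without WT OIR replicate 3 the log2 fold change in WT was 1.01 with an adjusted p of 1.05e-12 in edgeR. The interaction, the difference of the rise between the labels, was 0.09 on the log2 scale with an interval of -0.28 to 0.46 that leaves room for a difference either way (adjusted p = 0.9998, edgeR). In the fit to all libraries that allowed for genotype, the log2 fold change was 0.90 (SE 0.101, adjusted p = 4.74e-16, edgeR). Marker sums of other cells moved with OIR too, without overlap under either label. The sum of 7 astrocyte and reactive glia markers had means of 96.4 and 169 CPM in WT normoxia and OIR and 108 and 177 CPM in Casp1 KO. Within this sum Gfap went from 25.3 to 79.6 CPM in WT and from 17.4 to 86.3 CPM in Casp1 KO. Over both genotypes 4 of the 7 markers were called higher and 1, S100b, lower (-0.42, adjusted p = 0.0252, edgeR). Of all genes, 2.32% were called higher and 2.57% lower. The sum of 12 microglia and macrophage markers had means of 67.9 and 119 CPM in WT and 64.0 and 119 CPM in Casp1 KO. The sum of 8 retinal ganglion cell markers was lower in OIR, with 2777 and 1538 CPM in WT and 3021 and 1631 CPM in Casp1 KO. That of 10 pigment epithelium markers was higher in OIR, with 987 and 1171 CPM in WT and 1101 and 1729 CPM in Casp1 KO. The sum of 10 Muller glia markers was lower in OIR in WT (3000 and 2516 CPM) and higher in OIR in Casp1 KO (2221 and 3239 CPM). Markers within these 2 sums went both ways. In WT 2 pigment epithelium markers were called higher and 1 lower, and 1 Muller glia marker higher and 3 lower. Of all genes there, 1.58% were called higher and 2.29% lower. In Casp1 KO the calls were 5 and 0, and 7 and 1, against 2.61% and 2.03% of all genes. All markers of these lists had reads, and their part in the Vegfa values was not tested. Reads at the 3' end do not separate the splice forms of Vegfa, which differ in how strongly they bind heparan sulfate.

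Vegfb (chr19:6982473-6987651, minus strand) encodes a ligand of Flt1. Its level was 71.2, 67.6 and 78.5 CPM in WT normoxia and 59.8, 51.9 and 52.3 CPM in WT OIR. In Casp1 KO it was 59.3, 80.5 and 62.8 CPM in normoxia and 51.4, 51.9 and 54.3 CPM in OIR. Each OIR value was below each normoxia value of the same label, though by little in Casp1 KO. Within 1 label the change was not called, with log2 fold changes of -0.42 in WT (adjusted p = 0.193, edgeR) and -0.34 in Casp1 KO (adjusted p = 0.230, edgeR). Over both genotypes Vegfb fell by 0.38 on the log2 scale (SE 0.119, adjusted p = 0.0325, edgeR), a ratio of 0.768. That call was lost without any of 6 of the 12 libraries, which were WT normoxia replicate 3 (adjusted p = 0.111), WT OIR replicates 2 and 3 (0.0771 and 0.0518), Casp1 KO normoxia replicate 2 (0.160) and Casp1 KO OIR replicates 1 and 3 (0.0721 and 0.0512). It was also lost with all 12 libraries in edgeR's likelihood ratio test (adjusted p = 0.0704).

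The promoters of this opposed pair are shown for comparison, each from 250 bases before to 50 after the first annotated start, from RefSeq on GRCm38.p6 and written in the direction of transcription. Capitals mark the GC box core GGGCGG on either strand (CCGCCC on the other), which 35.7% of all 32851 promoter windows of this length hold.
Vegfa, chr17:46032328-46032627, minus strand: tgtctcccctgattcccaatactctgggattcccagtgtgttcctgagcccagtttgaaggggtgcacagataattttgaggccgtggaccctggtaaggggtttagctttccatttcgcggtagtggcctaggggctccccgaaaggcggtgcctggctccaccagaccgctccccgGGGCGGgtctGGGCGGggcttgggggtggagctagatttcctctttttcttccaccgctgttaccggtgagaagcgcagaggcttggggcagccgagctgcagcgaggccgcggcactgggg
Vegfb, chr19:6987602-6987901, minus strand: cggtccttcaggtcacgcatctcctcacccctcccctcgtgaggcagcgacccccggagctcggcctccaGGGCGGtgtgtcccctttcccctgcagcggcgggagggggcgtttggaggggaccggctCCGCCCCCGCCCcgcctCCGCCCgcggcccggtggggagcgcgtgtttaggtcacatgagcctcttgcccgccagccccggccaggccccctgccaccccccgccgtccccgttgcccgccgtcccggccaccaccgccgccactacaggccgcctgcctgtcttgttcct

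Vegfa held 2 such cores and Vegfb 4. The hypoxia response core ACGTG was searched on both strands in the same way and is held by 19.6% of all windows. It was in neither of these windows and in 1 of the 10 windows annotated for the 8 genes, that of a start inside Vegfa, which says only where these letters are.

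The balance of the ligands was also compared within each library, where depth cancels. Reads of Vegfa per read of Vegfb were 1.24, 1.33 and 1.06 in WT normoxia against 3.09, 3.27 and 2.26 in WT OIR, and 1.32, 0.841 and 1.096 against 2.84, 2.43 and 2.61 in Casp1 KO. The lowest OIR ratio was above the highest normoxia ratio under both labels. The log2 change was 1.24 in WT and 1.297 in Casp1 KO, a difference between the labels of 0.06.

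Vegfc (chr8:54077606-54187096, plus strand), the ligand of Flt4, was near the limit of detection. It had 4, 40 and 1 reads in WT normoxia, 0, 12 and 0 in WT OIR, 9, 7 and 1 in Casp1 KO normoxia and 8, 5 and 4 in Casp1 KO OIR. The 2 libraries without reads allow up to 0.735 and 0.545 CPM, and no group stood apart from the others. The intervals of the log2 fold change, from -2.95 to 2.25 in WT and from -2.35 to 2.21 in Casp1 KO, show that a change of several fold either way was not detectable at this depth.

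Pgf (chr12:85166635-85177790, minus strand), the placental growth factor that binds Flt1, was likewise rare. WT normoxia held 1, 0 and 4 reads and WT OIR 16, 20 and 6, while Casp1 KO held 21, 0 and 8 in normoxia and 12, 5 and 23 in OIR. In WT the groups did not overlap in CPM (up to 0.870 in normoxia and at least 1.09 in OIR), and in Casp1 KO they did. The log2 fold change was 3.30 in WT (95% interval 0.84 to 5.76, adjusted p = 0.140, edgeR) and 0.51 in Casp1 KO (-0.98 to 2.002, adjusted p = 0.775, edgeR). Neither passed the threshold, and the WT value did so without WT normoxia replicate 3, which holds most of the normoxia reads (5.52, adjusted p = 0.0384, edgeR), and in a fit to all 12 libraries (3.41, adjusted p = 0.0347).

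**Figure D2:**
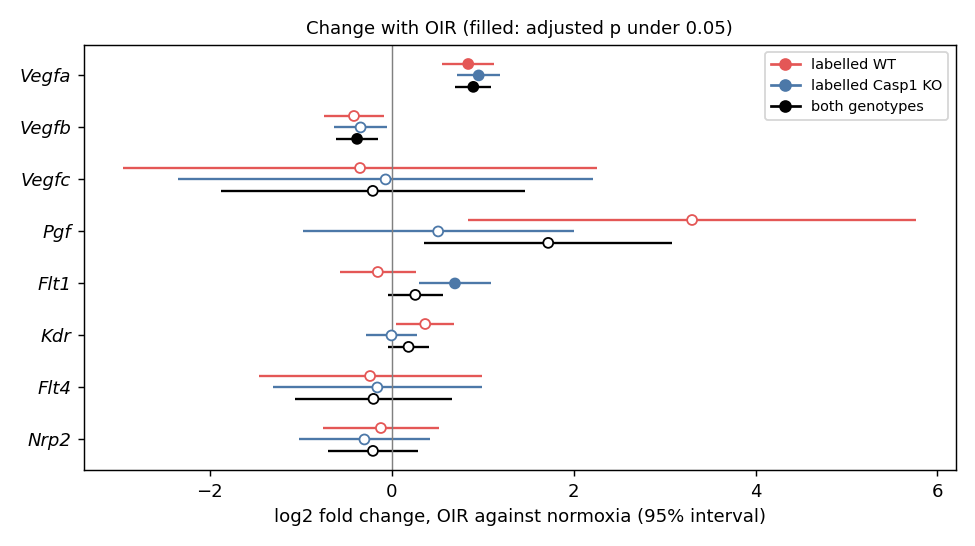
log2 fold change of each gene in OIR against normoxia with its 95% interval, in the libraries labelled WT (red), in those labelled Casp1 KO (blue) and over both genotypes (black). Filled points passed an adjusted p of 0.05, which were Vegfa in all 3, Vegfb over both and Flt1 in Casp1 KO, while the intervals of Vegfc and Pgf are the widest.

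Flt1 (chr5:147561604-147726011, minus strand, 30 exons in its longest transcript) encodes VEGF receptor 1. Its level was 28.6, 37.5 and 32.4 CPM in WT normoxia and 29.9, 36.1 and 23.8 CPM in WT OIR. In Casp1 KO it was 28.3, 18.01 and 25.8 CPM in normoxia and 42.9, 41.4 and 32.5 CPM in OIR. The WT groups overlapped throughout, whereas each Casp1 KO OIR library was above each Casp1 KO normoxia library. Flt1 rose 1.62-fold in Casp1 KO (log2 fold change 0.69, SE 0.202, 95% interval 0.30 to 1.09, adjusted p = 0.0175, edgeR) and had a log2 fold change of -0.15 in WT (-0.57 to 0.27, adjusted p = 0.778, edgeR). The interaction, which tests the difference between these changes, was 0.83 on the log2 scale (SE 0.295, 0.25 to 1.40) and did not pass after adjustment (adjusted p = 0.191, edgeR). The call in Casp1 KO was lost without Casp1 KO normoxia replicate 2 (0.53, adjusted p = 0.219, edgeR) and without Casp1 KO OIR replicate 1 (adjusted p = 0.124) or 2 (adjusted p = 0.106), and DESeq2 gave an adjusted p of 0.0664. Reads at the 3' end of the gene do not measure the soluble form of the receptor separately.

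Markers of other cells moved between the same groups. The summed level of 10 Muller glia markers, all detected, ran from 2905 to 3072 CPM in WT normoxia, 2469 to 2542 in WT OIR, 2140 to 2289 in Casp1 KO normoxia and 3157 to 3335 in Casp1 KO OIR. The order of the 4 groups was that of the mean Flt1 levels, which were 32.8, 29.9, 24.04 and 38.9 CPM in the same sequence. The sum of 5 genes listed as lymphatic endothelial markers, of which Ccl21a had no reads, had means of 455, 439, 314 and 461 CPM in that sequence. Prox1 made up the largest part of that sum, with means of 273, 232, 166 and 233 CPM. Which cells these reads came from was not tested, so the sum is no measure of lymphatic cells. Of the 10 Muller glia markers 7 rose and 1 fell in Casp1 KO, where 2.61% of all genes tested were called higher and 2.03% lower, and 1 rose and 3 fell in WT, where these shares were 1.58% and 2.29%. The sum of 10 pigment epithelium markers was 1082 to 1123 CPM in Casp1 KO normoxia and 1666 to 1789 in Casp1 KO OIR and was 976 to 996 CPM in WT normoxia and 1076 to 1237 in WT OIR. The sum of 9 lens markers was 554 to 598 CPM in Casp1 KO normoxia, 981 to 1106 in Casp1 KO OIR, 440 to 506 in WT normoxia and 294 to 686 in WT OIR. Their part in the Flt1 values was not tested. The sum of 18 endothelial markers overlapped between the Casp1 KO groups (109 to 113 CPM in normoxia and 106 to 133 in OIR).

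Kdr (chr5:75932827-75978458, minus strand) encodes VEGF receptor 2, the main signalling receptor of VEGF-A. Its level was 62.0, 57.6 and 65.2 CPM in WT normoxia and 77.6, 86.3 and 75.8 CPM in WT OIR, against 62.2, 67.98 and 78.003 in Casp1 KO normoxia and 62.3, 78.8 and 64.4 in Casp1 KO OIR. The WT OIR libraries lay above the WT normoxia libraries, and the Casp1 KO groups overlapped almost completely. The log2 fold change was 0.37 in WT (95% interval 0.05 to 0.69, adjusted p = 0.270, edgeR) and -0.0029 in Casp1 KO (-0.28 to 0.27, adjusted p = 0.995, edgeR), and neither was called. The interval in Casp1 KO leaves room for changes of up to about 0.27 on the log2 scale.

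Within a library, the balance of Flt1 and Kdr moved in opposite directions under the 2 labels. Reads of Flt1 per read of Kdr were 0.461, 0.650 and 0.497 in WT normoxia and 0.385, 0.418 and 0.314 in WT OIR, and 0.455, 0.265 and 0.331 in Casp1 KO normoxia and 0.689, 0.525 and 0.505 in Casp1 KO OIR. All WT OIR ratios were below all WT normoxia ratios and all Casp1 KO OIR ratios were above all Casp1 KO normoxia ratios. The log2 change was -0.52 in WT and 0.73 in Casp1 KO. Their difference was 1.25. The ratios were chosen with the values of the genes known, so they are given as descriptions, without a p. The third, Vegfa per Kdr, changed by 0.46 and 0.97 and differed by 0.51.

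**Figure D3:**
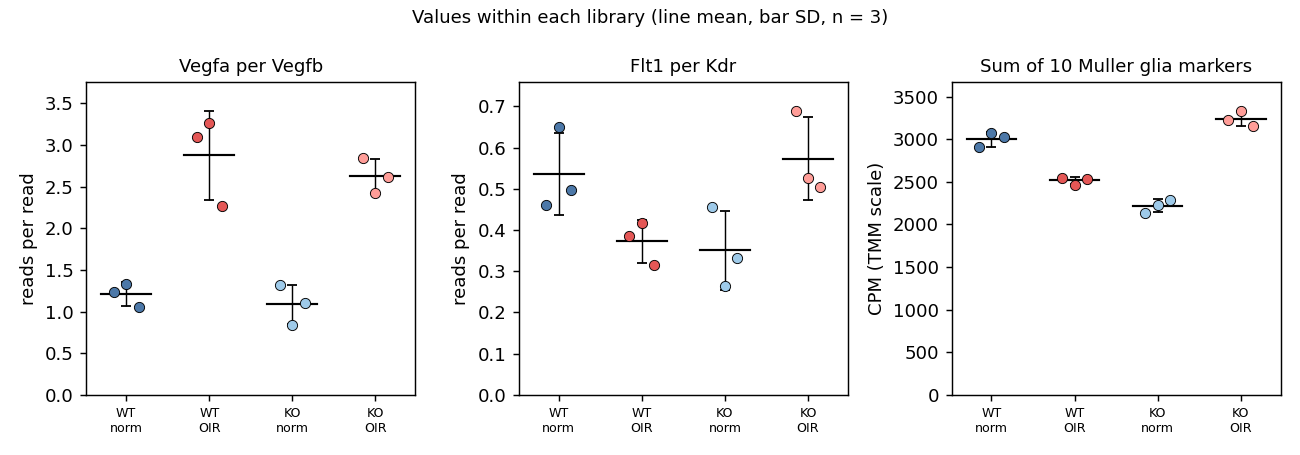
Reads of Vegfa per read of Vegfb, reads of Flt1 per read of Kdr, and the summed CPM of 10 Muller glia markers in each library, with the group mean as a line and the SD as a bar (n = 3). Flt1 per Kdr is lower in OIR under the WT label (0.314 to 0.418 against 0.461 to 0.650) and higher in OIR under the Casp1 KO label (0.505 to 0.689 against 0.265 to 0.455).

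The promoters of the receptor pair are given in the same form as those of the ligands.
Flt1, chr5:147725962-147726261, minus strand: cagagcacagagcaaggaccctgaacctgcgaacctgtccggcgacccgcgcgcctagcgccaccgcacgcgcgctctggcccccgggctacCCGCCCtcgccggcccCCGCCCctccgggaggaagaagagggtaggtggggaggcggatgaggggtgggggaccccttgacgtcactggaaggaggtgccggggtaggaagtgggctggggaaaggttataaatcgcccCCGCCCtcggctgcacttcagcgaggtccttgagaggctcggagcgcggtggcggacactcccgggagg
Kdr, chr5:75978406-75978705, minus strand: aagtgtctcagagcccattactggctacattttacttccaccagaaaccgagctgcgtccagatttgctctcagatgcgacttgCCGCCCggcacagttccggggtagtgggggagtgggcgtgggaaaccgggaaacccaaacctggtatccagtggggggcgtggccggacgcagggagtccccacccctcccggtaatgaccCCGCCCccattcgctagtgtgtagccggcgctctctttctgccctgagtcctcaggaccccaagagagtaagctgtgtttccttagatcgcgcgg

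Flt1 held 3 GC box cores and Kdr 2. The TATA box core TATAAA (either strand) occurred 1 time, in Flt1, and is held by 13.6% of all windows.

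Flt4 (chr11:49609263-49652739, plus strand), VEGF receptor 3, was measured at 24, 109 and 9 reads in WT normoxia, 26, 13 and 6 in WT OIR, 27, 5 and 24 in Casp1 KO normoxia and 13, 17 and 21 in Casp1 KO OIR. The groups overlapped in CPM under both labels. The log2 fold change of -0.24 in WT and -0.16 in Casp1 KO had intervals of -1.47 to 0.99 and -1.31 to 0.99, so changes of about 2-fold either way lie within them and were not detectable at this depth.

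Nrp2 (chr1:62703285-62818695, plus strand), the co-receptor, had 14.7, 9.43 and 15.003 CPM in WT normoxia, 14.9, 9.02 and 11.99 in WT OIR, 12.6, 9.88 and 7.97 in Casp1 KO normoxia and 8.67, 8.32 and 7.61 in Casp1 KO OIR. OIR and normoxia overlapped under both labels, and the Casp1 KO OIR libraries lay below the WT OIR libraries. That difference was -0.54 on the log2 scale with an adjusted p of 0.711 in edgeR and an interval of -1.25 to 0.17. Other annotated genes overlap Nrp2 on both strands, and the strand setting of the counting was not given in the sources used here, so its counts are uncertain. Neuropilin 1 (Nrp1), the co-receptor of VEGF-A that is not among the 8 genes, averaged 21.9, 25.4, 24.2 and 23.5 CPM in the 4 groups in the order above, and VEGF-D (Vegfd) had no reads in 8 of the 12 libraries and at most 8.

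Counted over the 8 genes, 1 was called higher and 0 lower in WT OIR, where 1.58% of all genes tested were called higher and 2.29% lower. In Casp1 KO OIR, 2 were called higher and 0 lower, against 2.61% and 2.03% of all genes. Over both genotypes, 1 was called higher and 1 lower, against 2.32% and 2.57%. With 8 genes these shares correspond to less than 1 gene each, so the counts rest on the single genes named. The median log2 fold change of the 8 genes over both genotypes was -0.0080, against 0.020 over all genes tested.

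The genotype labels were compared within each condition. In normoxia 0 of the 8 genes were called between Casp1 KO and WT by edgeR or DESeq2, against 1.04% of all genes in either direction. Vegfa was lower in each Casp1 KO normoxia library (67.7 to 78.03 CPM) than in each WT normoxia library (83.1 to 90.2 CPM), with a log2 fold change of -0.28 (95% interval -0.53 to -0.03, adjusted p = 0.490, edgeR). Flt1 likewise did not overlap between the labels in normoxia, with -0.44 (-0.84 to -0.04, adjusted p = 0.500, edgeR). Both had an unadjusted p under 0.05 in edgeR (0.0297 and 0.0312), as did no other of the 8. Many other genes did too, as these 2 ranked 1359 and 1402 by p among the 22480 genes tested. In OIR 0 were called by either tool, against 0.575% of all genes, and none had an unadjusted p under 0.05, Flt1 being closest with 0.38 (-0.04 to 0.80, adjusted p = 0.661, edgeR). The interaction of OIR and genotype called 0 of 8, against 1.13% of all genes, with Flt1 and Pgf at an unadjusted p under 0.05 in edgeR (0.00516 and 0.0347). By that p they ranked 661 and 1862 among the 24484 genes tested.

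The genes around the VEGF ligands and receptors were described by lists over both genotypes, each beside the median of 0.020 over all genes, of which 2.32% were called higher and 2.57% lower. Of 21 endothelial genes that VEGF is known to induce, 5 rose (Apln, Cd34, Nr4a1, Adamts1 and Mcam) and 0 fell, with a median log2 fold change of 1.42, or 0.87 over the genes of the list with a mean of at least 1 CPM. Only Apln of these was called within both labels. Within WT 3 were called higher (Apln, Cd34 and Mcam), against 1.58% of all genes. Within Casp1 KO 3 were called higher (Apln, Nr4a1 and Adamts1), against 2.61% of all genes. The interaction called 0 of the 21, against 1.13% of all genes. Apln, the tip cell ligand of the apelin receptor, went from 3.72 ± 2.16 to 31.3 ± 11.02 CPM in WT and from 4.24 ± 1.73 to 24.9 ± 4.03 CPM in Casp1 KO (SD, n = 3), a log2 fold change of 2.89 (adjusted p = 1.02e-31, edgeR). Cd34, a surface protein of endothelium and tip cells, rose by 1.49 (adjusted p = 4.64e-06), and the immediate early nuclear receptor Nr4a1 by 1.04 (adjusted p = 0.000688). Cd34 was 3.82 CPM in the lowest WT OIR library against 23.3 in the highest. Without WT normoxia replicate 2, 3 genes of this list were called. The sum of the 18 endothelial markers in WT ran from 86.3 to 107 CPM in normoxia and from 81.8 to 171 CPM in OIR, where replicate 3 was the lowest, and its part in these rises was not tested. Of those 18 markers Pecam1 rose and Ly6c1 fell over both genotypes. Within a label, Pecam1 was called in WT (1.42, adjusted p = 5.64e-05, edgeR) and not in Casp1 KO (0.25, adjusted p = 0.737, edgeR). Ly6c1 was called lower in WT (-2.67, adjusted p = 0.00109, edgeR) and in Casp1 KO (-2.78, adjusted p = 0.0434, edgeR). Within Casp1 KO 0 of these markers were called higher and 2 lower, against 2.61% and 2.03% of all genes.

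Of 20 hypoxia-inducible genes with reads, besides Vegfa, 9 rose and 0 fell, with a median of 0.32 with or without that minimum. Adm, which encodes the vasodilator adrenomedullin, had 0 reads in WT normoxia and 1.45 to 7.84 CPM in WT OIR, and 0.290 to 0.724 CPM in Casp1 KO normoxia and 1.97 to 5.35 CPM in Casp1 KO OIR. The prolyl hydroxylase gene Egln3 rose by 2.29 on the log2 scale (adjusted p = 4.25e-07, edgeR). The glucose transporter gene Slc2a1 rose by 0.49 over both (adjusted p = 1.07e-05), with 0.89 in Casp1 KO and 0.10 in WT (adjusted p = 0.766), and its interaction passed the test (0.76, adjusted p = 0.00259, edgeR). Within WT 3 genes of this list rose (Adm, Egln3 and Bnip3) and 1 fell (Hk2), against 1.58% and 2.29% of all genes. Within Casp1 KO 10 rose and 0 fell, against 2.61% and 2.03% of all genes. Of 14 genes of oxygen sensing and Vegfa control, the ubiquitin ligase component gene Vhl rose (0.48, adjusted p = 0.0225, edgeR) and 0 fell, with a median of 0.15. Without WT OIR replicate 3, 2 of these were called.

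Of 48 cytoplasmic signalling genes downstream of the receptors, Nras, a RAS GTPase, rose by 0.56 (adjusted p = 0.0167, edgeR) and Prkcb, a protein kinase C, fell by 0.38 (adjusted p = 0.00235), with a median of 0.013. This is 1 gene each way of 48, a share near the 2.32% and 2.57% of all genes. Prkcb was also called within WT (-0.52, adjusted p = 0.00885). Of 21 genes that restrain VEGF receptor signalling, Thbs1, the matrix protein thrombospondin 1, rose by 0.70 (adjusted p = 0.0101), and Ptprb, the vascular endothelial phosphatase, fell by 0.67 (adjusted p = 0.0279), with a median of 0.14. That list shares Dll4, Rcan1 and Dusp5 with the VEGF-induced list. Of 9 other family genes and co-receptors 0 were called (median 0.19), with Cdh5 at 0.94 (adjusted p = 0.225) and Egfl7 at 0.54 (adjusted p = 0.0931), both of which are also among the 18 endothelial markers. In edgeR 4 of these 9 had an unadjusted p under 0.05, and 1 was called without WT OIR replicate 3. Many genes reached that level in this fit. By unadjusted p in edgeR, Pgf (0.0133) ranked 1964 and Flt1 (0.0914) ranked 4810 among the 24484 genes tested.

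**Figure D4:**
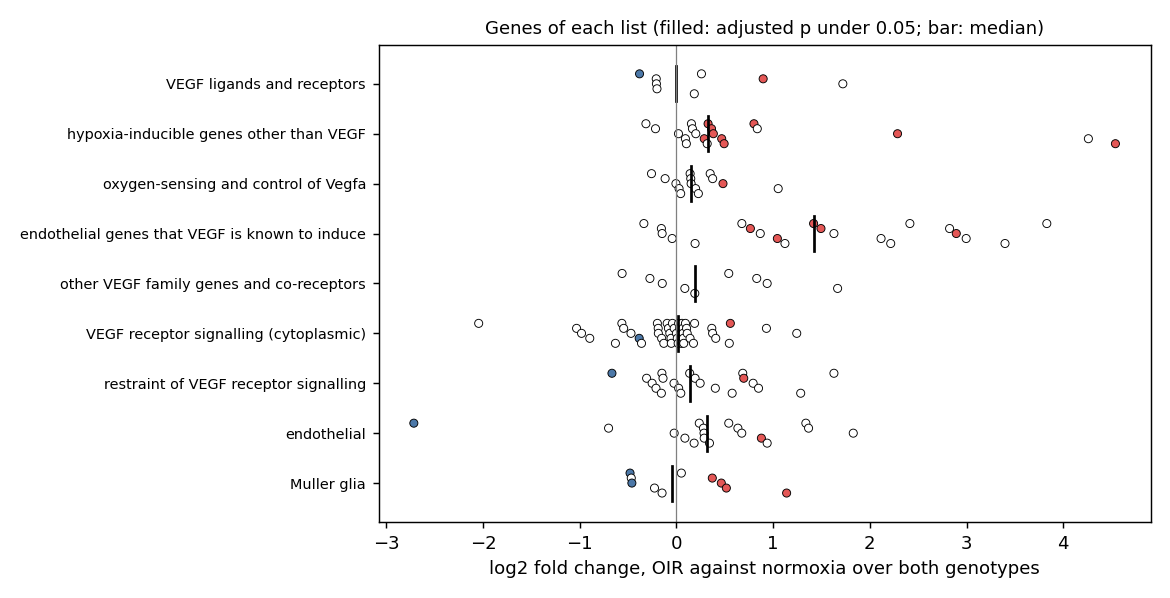
log2 fold change of each gene in OIR against normoxia over both genotypes, by list, with red points higher and blue points lower at an adjusted p under 0.05 and a bar at each list's median. The VEGF-induced endothelial genes have a median of 1.42 (0.87 over those with a mean of at least 1 CPM), the hypoxia-inducible genes of 0.32 and the 8 VEGF ligands and receptors of -0.0080.

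The genes most like each of the 5 best measured members were sought by the root mean square difference of centred log2 CPM over the 12 libraries, among 11038 genes with at least 10 reads in every library. For Vegfa these were Cp, which encodes ceruloplasmin, a copper-carrying ferroxidase (0.157), Zbtb46 (0.211) and Crym (0.214), where the median gene differed by 0.553. For Vegfb they were Tcaf1 (0.0978), Nme1 (0.108) and Chd3 (0.116) against a median of 0.347, and for Flt1 Tmub1 (0.157), Nup37 (0.182) and Thop1 (0.182) against 0.427. For Kdr they were Luc7l2 (0.0860), Rhot2 (0.110) and Cryzl1 (0.113) against 0.327, and for Nrp2 Nol8 (0.193), Arhgap39 (0.209) and Cwc27 (0.209) against 0.439. These distances are descriptions over libraries that share their normalization.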

How the data were processed

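The authors made QuantSeq 3' libraries from total retinal RNA, sequenced 75 bases from 1 end, aligned the reads to mm10 and counted them per gene. The submitters' processing notes name STAR 2.7.5a, HTSeq 0.6.1 and edgeR. The deposited table holds whole-number counts per gene symbol, not normalized. The annotation, strand setting and handling of reads with several matches are not given in the sources used here.

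Groups came from the labels. Counts were fitted in R 4.3.3 with edgeR 4.0.16 (TMM, glmQLFit, glmQLFTest, Benjamini-Hochberg) on every gene that had 1 count or more in the libraries of the fit. Each pair of groups was fitted on its own 6 libraries, and the interaction and the effect over both genotypes on all 12. Standard errors were derived from the fold change and test statistic, with a prior count of 0.125. DESeq2 1.42.0, other filters, a likelihood ratio test, a fit to all libraries, a replicate block and leaving out each library were alternatives. Details of oxygen and age come from the study's methods. The code was tested on simulated data. Promoters came from RefSeq (GRCm38.p6) and gene positions from GENCODE vM21.

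The members and lists were chosen with earlier results of these data known. Named were the 8 members, Casp1, Nrp1, Vegfd, up to 3 called genes each way per list with the smallest p over both genotypes, and the 3 genes nearest in pattern. Gfap, S100b, Prox1, Pecam1, Ly6c1, Cdh5, Egfl7, Adamts1, Mcam, Bnip3 and Hk2 were named after their values were seen.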

Additional observations from a re-analysis of the deposited data

Results flagged for a closer look

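Reads of Flt1 per read of Kdr changed by -0.52 on the log2 scale with OIR in the libraries labelled WT and by 0.73 in those labelled Casp1 KO, a difference of 1.25. It was picked out among 3 ratios by a permutation of the genotype labels within each condition. All WT OIR ratios were below all WT normoxia ratios and all Casp1 KO OIR ratios were above all Casp1 KO normoxia ratios. The pair was chosen with the values of the genes known, so the difference is a description and is given no p. With each library left out in turn it ran from 1.07 to 1.46. In edgeR, neither gene alone passed the interaction test, with an adjusted p of 0.191 for Flt1 and 0.553 for Kdr. The summed Muller glia markers and the summed genes listed as lymphatic endothelial markers, of which Prox1 was the largest part, both moved with the ratio. Both had their lowest mean in Casp1 KO normoxia and their highest in Casp1 KO OIR, and their part in the ratio was not tested.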

How the results depend on the processing

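Vegfa kept its call in every alternative run for WT, for Casp1 KO and over both genotypes. Of the 721 alternative values of single members, 666 kept their direction and side of the threshold, 42 reversed, 11 lost a call and 2 gained one. The number of members called was 2 in WT in the fit to all 12 libraries (1 otherwise, 1 to 2 with a library left out), 1 in Casp1 KO with DESeq2 (1 to 2 with a library left out) and 1 over both genotypes with the likelihood ratio test (1 to 2). Reversals were values with intervals across 0, and the cause was not tested. Over all alternatives that gave a value, those with a library left out among them, log2 fold changes ranged as follows. WT ranged from -6.02 to 0.64 for Vegfc, -1.12 to 0.18 for Flt4 and -0.33 to 0.054 for Nrp2. Casp1 KO ranged from -0.55 to 0.35 for Vegfc, -0.077 to 1.48 for Pgf, -0.13 to 0.093 for Kdr and -0.54 to 0.16 for Flt4. Between the genotypes, Flt4 ranged from -0.19 to 0.49 in normoxia and from -0.23 to 1.06 in OIR, where Vegfb ranged from -0.092 to 0.011 and Pgf from -0.61 to 0.37. The interaction ranged from -0.077 to 0.22 for Vegfa, -0.040 to 0.19 for Vegfb, -0.72 to 5.54 for Vegfc, -0.36 to 0.94 for Flt4 and -0.38 to 0.017 for Nrp2, and over both genotypes Vegfc from -1.30 to 0.23. The difference between genotypes of Vegfa per Vegfb ranged from -0.11 to 0.21 with a library left out in turn, the only alternative run for it.

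Counts over all genes moved more. In WT 886 genes were called, 586 with edgeR's filterByExpr and 545 to 1130 with a library left out, and in Casp1 KO 1038, or 642 in the fit to all 12. Between genotypes in normoxia 233 were called, with 444 in DESeq2, 148 in the likelihood ratio test, 109 in the fit to all 12 and 128 to 199 with a library left out. In OIR it was 131, with 82 in DESeq2, 54 in the likelihood ratio test, 16 with filterByExpr, 17 with at least 10 counts in every library, 255 in the fit to all 12, and with a library left out from 47 (WT OIR replicate 2) to 815 (WT OIR replicate 3). The interaction gave 277, with 181, 139 and 152 under the likelihood ratio test, filterByExpr and the minimum of 10, and 174 to 597 with a library left out. Of the lists, 1 of the other family genes and 2 of the oxygen-sensing genes were called without WT OIR replicate 3, chosen after seeing the data.

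Replicate numbers did not pair the libraries. Across 18 pairs with the same number the correlation of deviations ran from -0.05 to 0.17, with 1 over 0.1, and 5 of 12 libraries correlated best with one of their own number. With the number as a replicate block, 794 genes were called in WT, 1028 in Casp1 KO and 1168 over both genotypes, the members called were 1, 2 and 2, and Vegfc in Casp1 KO was 0.17 in place of -0.067.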
